A study of Homo sapiens with 6 samples.

Results

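The protein kinase C (PKC) and protein kinase D (PKD) isoforms were followed in HEK-293T cells treated with nitidine chloride. They were 10 genes named by their symbols, out of 50868 genes in the expression table: PRKCA, PRKCB, PRKCD, PRKCE, PRKCQ, PRKCI and PRKCZ for PKC, and PRKD1, PRKD2 and PRKD3 for PKD. HEK-293T is a transformed human embryonic kidney line that carries the SV40 large T antigen, and it was labelled wild type in both groups. The control group received medium with DMSO, the solvent, and the treated group received nitidine chloride at 10 µM. Nitidine chloride is a plant alkaloid of the benzophenanthridine class. Exposure lasted 12 h, and each group had 3 libraries. Libraries of mRNA held 12688093 to 16357992 counts. Nothing in the labels says whether libraries of a group came from separate cultures, so errors and p-values describe the spread between libraries, which may be technical. The genes were chosen by symbol with the measured fold changes of this contrast and their relation to genomic span already known, so their fold changes and calls in the fit over all genes are given as a description, with no p-value.

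PKC isoforms are serine/threonine kinases, most of which act downstream of phospholipase C. The conventional isoforms, alpha (PRKCA) and beta (PRKCB), respond to calcium and to the membrane lipid diacylglycerol. Delta (PRKCD), epsilon (PRKCE) and theta (PRKCQ) respond to diacylglycerol without calcium, and the atypical isoforms iota (PRKCI) and zeta (PRKCZ) need neither and work with the Par polarity proteins. PKD kinases have a different catalytic domain, bind diacylglycerol at the Golgi and plasma membranes and are switched on by PKC. PKC theta and PKC beta are best known from leukocytes, and PKC alpha, delta and iota occur in most tissues.

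After nitidine chloride the isoforms parted by the size of their genes. PRKCA, PRKCE, PRKD1 and PRKCB, the 4 with the longest genes, kept 6.14%, 7.20%, 9.90% and 17.2% of their DMSO level. PRKCZ, PRKCQ and PRKD3 kept 58.3%, 59.4% and 61.3%, while PRKCI, PRKCD and PRKD2 had 79.0%, 96.0% and 118.0% with CPM groups that overlapped. In the fit over all 15953 genes tested, by edgeR's quasi-likelihood method with Benjamini-Hochberg adjusted p, 7 of the 10 isoforms were called lower at an adjusted p under 0.05 and 0 were called higher, also 0 with DESeq2 and limma-voom. Of all genes tested, 27.0% were called lower and 24.7% higher, or 51.7% in either direction. By CPM, the library values of 7 isoforms did not overlap between the groups, all 7 lower, and 60.7% of all genes tested did not overlap, 31.0% lower and 29.7% higher. Since the isoforms were picked on this contrast, nothing is read from these shares. All 10 isoforms passed the filter of a mean of at least 10 counts. Scaling by library size alone moved the median log2 fold change of all genes tested from 0.01 to 0.12, and with it 1 isoform, PRKD2, was called higher. The share of called genes that were higher then went from 47.7% to 57.9%, so directions hold relative to the TMM scaling used here.

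The DNA just upstream of the start sites is shown for PRKCA and the PKD genes, because the PKD genes form a subfamily whose members went apart and PRKCA had the lowest fold change. Each run is the 250 bases before a RefSeq start site on GRCh38.p14, 5′ to 3′ on the strand of the gene, with capitals marking GGGCGG or its reverse complement CCGCCC, the GC box. Among isoforms whose window had at most 30 bases inside annotated exons, PRKCA and PRKD1 had the lowest fold changes and PRKD2 and PRKD3 the highest. The window of PRKCA is chr17:66302363-66302612 on the plus strand. Those of PRKD1, PRKD2 and PRKD3 are chr14:29927848-29928097, chr19:46717115-46717364 and chr2:37324834-37325083, all on the minus strand. The RefSeq start of PRKD3 lies 6939 bases from that of its principal transcript.
PRKCA: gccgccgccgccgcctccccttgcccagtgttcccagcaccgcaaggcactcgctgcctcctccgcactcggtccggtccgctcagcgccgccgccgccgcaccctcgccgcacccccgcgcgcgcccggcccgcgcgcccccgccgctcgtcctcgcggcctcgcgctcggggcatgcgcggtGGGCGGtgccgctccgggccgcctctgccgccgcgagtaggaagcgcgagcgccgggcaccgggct
PRKD1: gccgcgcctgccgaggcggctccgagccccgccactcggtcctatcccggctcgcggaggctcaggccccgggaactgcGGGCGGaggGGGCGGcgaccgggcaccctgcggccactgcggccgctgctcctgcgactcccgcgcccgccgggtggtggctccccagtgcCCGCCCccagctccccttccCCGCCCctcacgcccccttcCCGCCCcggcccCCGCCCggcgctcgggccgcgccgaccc
PRKD2: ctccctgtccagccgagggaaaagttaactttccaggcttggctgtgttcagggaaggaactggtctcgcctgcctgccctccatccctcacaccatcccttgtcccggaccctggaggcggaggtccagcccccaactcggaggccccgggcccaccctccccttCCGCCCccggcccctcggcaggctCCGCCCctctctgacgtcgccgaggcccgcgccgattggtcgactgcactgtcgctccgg
PRKD3: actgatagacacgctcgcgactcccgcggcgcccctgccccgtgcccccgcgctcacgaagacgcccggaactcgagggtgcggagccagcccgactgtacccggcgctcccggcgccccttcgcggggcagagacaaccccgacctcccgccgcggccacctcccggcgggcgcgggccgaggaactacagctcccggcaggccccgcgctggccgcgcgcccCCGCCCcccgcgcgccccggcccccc

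All 4 windows held the GC box, in 1 match for PRKCA, 6 for PRKD1, 2 for PRKD2 and 1 for PRKD3. Over the isoforms, 9 of 10 windows held GGGCGG or CCGCCC, against 42.6% of 35116 windows of the same length in RefSeq. Only 1 window per isoform was used, although RefSeq lists 4 entries for PRKCZ, 3 for PRKCD and 2 each for PRKD1 and PRKD2. The counts over 10 windows include those of PRKCE, PRKCD, PRKCI and PRKCB. These had 250, 89, 59 and 37 of their 250 bases inside annotated exons, so they are not purely upstream DNA. PRKCQ was without a match. CCAAT was found on either strand in 3 of 10 windows and in 32.0% of all windows, and TATAAA in 1 of 10, that of PRKCQ, and in 10.7%. The AP-1 site TGACTCA and the cAMP response element TGACGTCA were found in 0 of 10 windows and in 4.2% and 1.65% of all windows. GC content was 82.0% for PRKCA, 82.8% for PRKD1, 69.2% for PRKD2 and 80.4% for PRKD3, against a median of 58.0% over all windows. It was 77.2% for PRKCB, 75.2% for PRKCD, 66.4% for PRKCE and 79.6% for PRKCZ. PRKCI had 58.0% and PRKCQ 49.2%, so 8 of the 10 windows lay above the median.

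The gene bodies differed far more than the coding plan. In GENCODE release 29 the longest principal transcript of each isoform had 15 to 19 exons, while its genomic extent ran from 31.6 kb for PRKCD to 536.2 kb for PRKCE. In PRKCA, on chromosome 17 from 66302636 to 66810743, introns made up 98.3% of the 507.9 kb of the transcript, and intron 2 alone spanned 190.1 kb. PRKCE, on chromosome 2 from 45651345 to 46187990, had a first intron of 190.6 kb and a second of 133.4 kb. PRKD1, on chromosome 14 from 29576479 to 30191898, had a first intron of 201.6 kb, and PRKCB, on chromosome 16 from 23836001 to 24220611, a second intron of 151.1 kb. Each of these 4 genes thus held a single intron longer than the whole span of PRKCD, PRKD2, PRKD3, PRKCI or PRKCZ, and long introns lay near the 5′ end.

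In the other genes the longest introns were shorter. The longest intron was 7.788 kb in PRKD2 (chromosome 19, 46674275 to 46717127), 16.98 kb in PRKCD (chromosome 3, 53156009 to 53192717) and 22.96 kb in PRKD3 (chromosome 2, 37250502 to 37324808). It was 24.62 kb in PRKCI (chromosome 3, 170222365 to 170305981), 65.07 kb in PRKCQ (chromosome 10, 6427143 to 6580301) and 75.67 kb in PRKCZ (chromosome 1, 2050470 to 2185395). Mature transcripts ran from 2326 nt in PRKCZ to 8751 nt in PRKCA and followed gene size only loosely. The long genes PRKCA and PRKCB had the longest, with 8751 and 8010 nt. PRKD1, also long, had 3726 nt, and PRKD3, with a span of 74.3 kb, had 6111 nt. PRKD1 was the exception among the long genes in that its table entry spanned 615.4 kb while its principal transcript covered 351.3 kb.

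**Figure D1:**
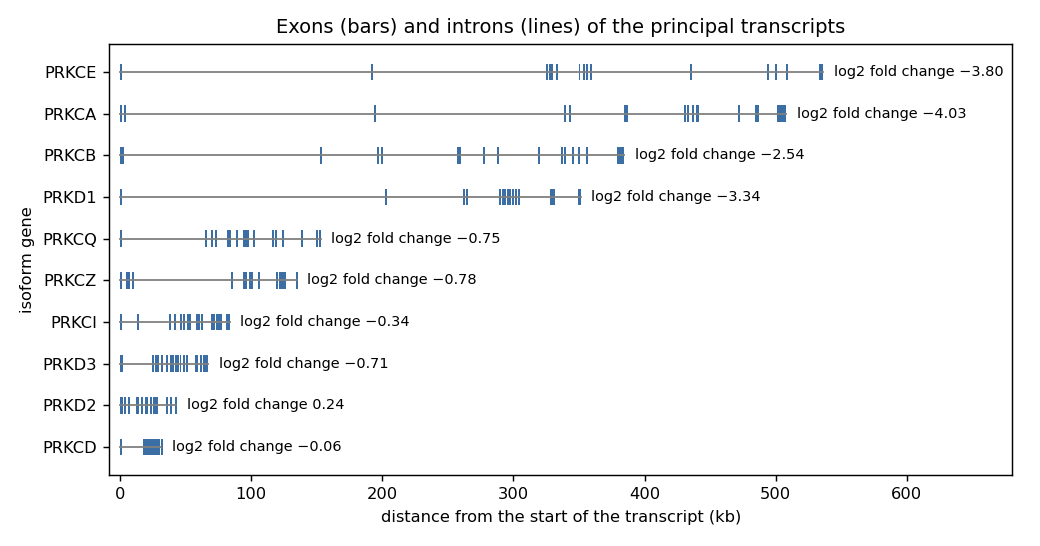
Exon maps of the longest principal transcript of each isoform gene, drawn to scale from the start of the transcript in kb, with exons as bars (drawn at least 1.5 kb wide to be visible), introns as lines and the log2 fold change of nitidine chloride over DMSO printed beside each. The 4 longest maps, PRKCE, PRKCA, PRKCB and PRKD1, carry fold changes of -3.80, -4.03, -2.54 and -3.34, and the 2 shortest, PRKCD and PRKD2, carry -0.06 and 0.24.

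Levels in DMSO were compared between isoforms as FPKM, the authors' value scaled for gene length and library size. PRKCD was highest with 10.5 ± 0.72 FPKM (SD, n = 3), followed by PRKCI with 8.72 ± 1.46, PRKD3 with 8.32 ± 0.34 and PRKCA with 5.93 ± 0.20. PRKCQ had 4.30 ± 0.04 FPKM, PRKCB 4.28 ± 0.16 and PRKCZ 3.20 ± 0.04. PRKD1 had 2.75 ± 0.28 FPKM, PRKD2 2.57 ± 0.26 and PRKCE 1.76 ± 0.09. Of neighbours in this order, PRKCI and PRKD3, PRKCQ and PRKCB, and PRKD1 and PRKD2 had overlapping libraries, and the other neighbours did not overlap. All isoforms listed were thus present in the control cells, including the 2 best known from leukocytes.

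The order depended on the length behind it. The gene models behind the FPKM were as long as the principal transcript for PRKCQ (a ratio of 1.0) but 5.17 times as long for PRKCZ and 3.71 times as long for PRKD2. CPM per kilobase of the principal transcript (CPM being counts scaled to library size), an alternative chosen after the data were seen, put PRKD3 first with 22.4, then PRKCI with 17.4, PRKCD with 17.1 and PRKCZ with 16.5. PRKCE was last with both lengths, at 3.71 per kilobase of the principal transcript.

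Markers of other cell types were low. Of 8 leukocyte markers, CD3E and CD3D had 0 counts in every library and PTPRC 1 count in 1 DMSO library, while the summed level of the 8 was 1.63 to 1.88 FPKM in DMSO and 3.19 to 3.41 FPKM after nitidine chloride. Of 7 fibroblast and hepatocyte markers the summed level was 2.53 to 2.94 FPKM in DMSO and 4.49 to 5.11 after nitidine chloride, with TTR at 0 in every library. Both sums were higher after treatment, with CORO1A and COL1A1 the highest members. Of 8 genes associated with HEK-293 lines, NEFL and NEFM, neurofilament genes, had 20.5 and 12.7 FPKM in DMSO, and INA, the third neurofilament gene listed, had 0 counts there. In bulk libraries, fewer cells with a transcript and less of it per cell cannot be told apart.

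Among the conventional isoforms, PRKCA had 865, 1030 and 1193 counts in the DMSO libraries and 64, 87 and 48 in the nitidine chloride libraries. After scaling these were 71.1, 73.3 and 75.7 CPM against 4.47, 5.50 and 3.45 CPM. Every treated library lay more than 10-fold below every control library. The log2 fold change was -4.03 ± 0.15 (SE), a level 16.3-fold lower. PRKCB had 691, 746 and 833 counts in the controls and 126, 169 and 117 after nitidine chloride, or 56.8, 53.0 and 52.9 CPM against 8.81, 10.7 and 8.41 CPM. The groups of PRKCB did not overlap either, with a log2 fold change of -2.54 ± 0.11. The conventional pair also changed places: within each library, PRKCA had 1.28 to 1.47 times the FPKM of PRKCB in DMSO and 0.42 to 0.53 times after nitidine chloride.

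Among the diacylglycerol-responsive isoforms that do not need calcium, PRKCE had 256, 299 and 364 counts in the controls and 25, 29 and 15 after nitidine chloride. These were 21.0, 21.3 and 23.1 CPM against 1.75, 1.83 and 1.08 CPM, a log2 fold change of -3.80 ± 0.18. The treated counts of PRKCE were the lowest of any isoform, so counting error was greatest there. PRKCD, often described as a kinase of stress and cell death signalling, had 50.5, 46.3 and 53.2 CPM in DMSO and 46.9, 49.5 and 47.6 CPM after nitidine chloride. Its groups overlapped, with a log2 fold change of -0.06 ± 0.08 that was 0.05 with scaling by library size alone, so no direction is given. PRKCD thus had 5.68 to 6.26 times the FPKM of PRKCE in DMSO and 70.0 to 115.0 times after treatment.

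PRKCQ, which relays T cell receptor signals in lymphocytes, had 14.9, 14.5 and 14.8 CPM in DMSO and 9.86, 8.34 and 8.05 CPM after nitidine chloride. The groups did not overlap, and the log2 fold change was -0.75 ± 0.11. Its 181 to 233 DMSO counts were the lowest of the isoforms, although its short gene model placed it above PRKCB and PRKCZ by mean FPKM.

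The atypical isoforms differed from each other. PRKCZ had 40.5, 39.8 and 39.4 CPM in DMSO and 21.9, 24.2 and 23.7 CPM after nitidine chloride, groups that did not overlap, with a log2 fold change of -0.78 ± 0.08. RefSeq lists 4 start sites for PRKCZ, and gene counts do not tell transcripts from these apart. PRKCI, the main atypical isoform of epithelial polarity, had 72.9, 100.3 and 96.0 CPM in DMSO and 52.1, 77.1 and 83.5 CPM after nitidine chloride. The groups of PRKCI overlapped and replicate 1 was the lowest library in both, with a log2 fold change of -0.34 ± 0.19. Leaving out single libraries gave -0.47 to -0.16 for PRKCI, the value nearest 0 without nitidine chloride replicate 1.

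The PKD genes went 3 ways. PRKD1 had 20.6, 24.2 and 24.8 CPM in DMSO and 2.24, 2.21 and 2.44 CPM after nitidine chloride, a log2 fold change of -3.34 ± 0.13 with groups far apart. PRKD3 had 136.1, 143.7 and 146.5 CPM in DMSO and 94.1, 76.1 and 91.2 CPM after nitidine chloride, a log2 fold change of -0.71 ± 0.09, again without overlap. PRKD2 had 36.2, 29.4 and 32.9 CPM in DMSO and 35.9, 42.1 and 38.3 CPM after nitidine chloride, a log2 fold change of 0.24 ± 0.10 with groups that overlapped by CPM and not by FPKM. In DMSO, PRKD2 and PRKD1 were at like levels, with a ratio of FPKM of 0.80 to 1.16. After nitidine chloride PRKD2 stood 10.4 to 12.6 times above PRKD1, and PRKD3 17 to 20.8 times above it.

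**Figure D2:**
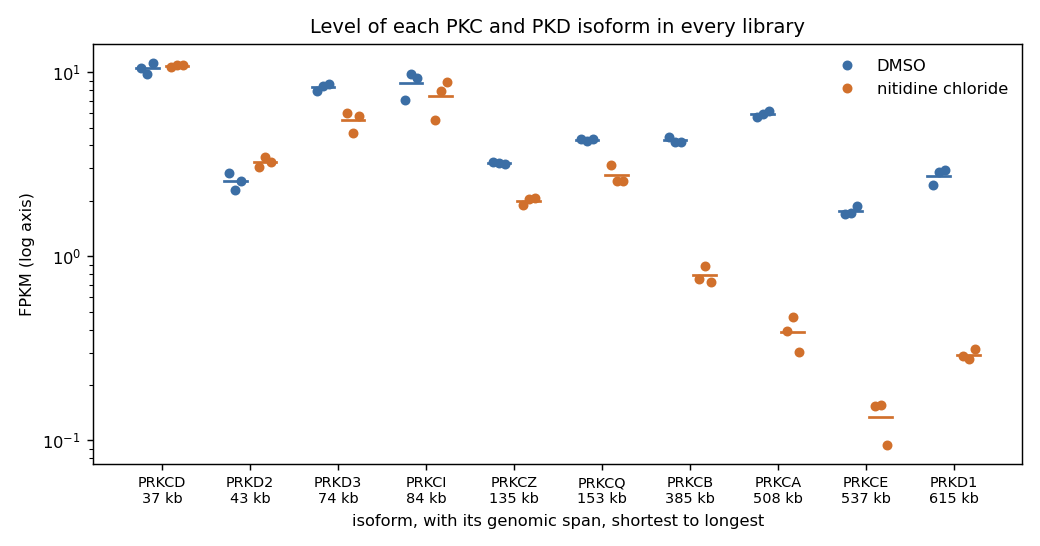
FPKM of each isoform in every library on a log axis, with isoforms ordered by genomic span; points are libraries and short lines are means of 3. DMSO and nitidine chloride points overlap for PRKCD and PRKCI, lie close without overlap for PRKD2, are separate for PRKD3, PRKCZ and PRKCQ, and are far apart for PRKCB, PRKCA, PRKCE and PRKD1.

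The make-up of the family changed accordingly. Summed over the 10 isoforms, FPKM was 50.3, 52.5 and 54.3 in the DMSO libraries and 31.9, 33.4 and 34.9 in the nitidine chloride libraries. The conventional isoforms held 19.5 ± 0.67% of that sum in DMSO and 3.53 ± 0.56% after nitidine chloride (SD, n = 3). PRKCD alone went from 20.1 ± 1.3% to 32.6 ± 1.21% of the sum while its own FPKM stayed between 9.79 and 11.2 over all libraries. The 4 isoforms with the longest genes held 28.1 ± 0.33% in DMSO and 4.81 ± 0.63% after nitidine chloride. The share of the PKD genes was 26.0 ± 0.16% and 27.1 ± 2.0%, but PRKD1 within it went from 5.24 ± 0.36% to 0.88 ± 0.04% and PRKD2 from 4.92 ± 0.63% to 9.76 ± 0.54%. Shares are of FPKM within a library, so they do not depend on the scaling between libraries, but they do depend on the authors' gene lengths.

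**Figure D3:**
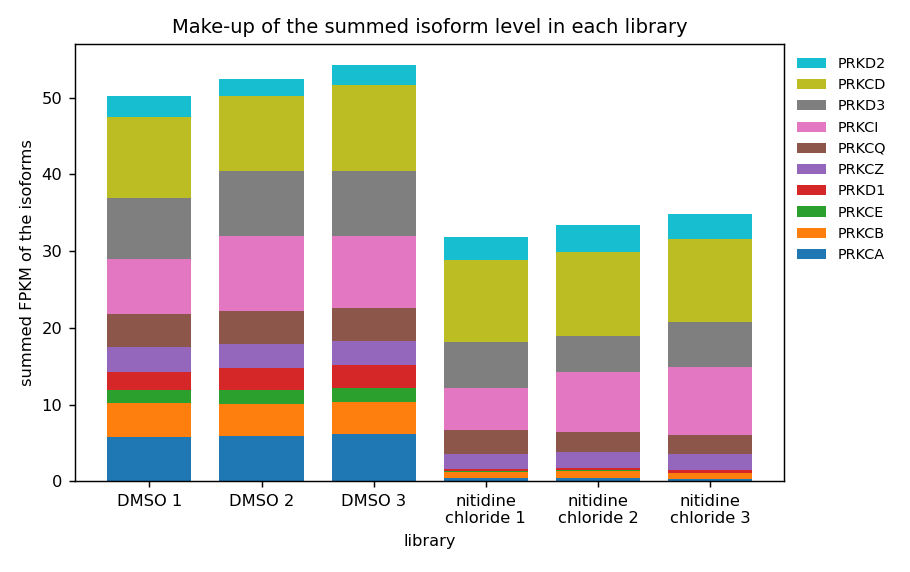
Stacked bars of the FPKM of the 10 isoforms in each of the 6 libraries, with the bar height as the sum. The sum lies between 50.3 and 54.3 in DMSO and between 31.9 and 34.9 after nitidine chloride, and the segments of PRKCA, PRKCB, PRKCE and PRKD1 at the base nearly vanish.

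The fold changes of the isoforms followed genomic span, which is the relation they were chosen for. Over the 10 genes, Spearman's rho between span and log2 fold change was -0.92, and it was -0.94 with the length of the longest intron and -0.94 with the extent of the principal transcript. With the length of the mature transcript it was -0.515. Span, longest intron and extent are tied to each other, and all of these values come from the same 6 libraries. PRKCA, PRKCE, PRKD1 and PRKCB had the lowest values in this order in all 3 treated libraries relative to the DMSO mean, and PRKCD and PRKD2 the highest. Among the 4 long genes the order did not follow span: PRKD1 with 615.4 kb was less reduced than PRKCA with 508.1 kb.

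Set against the tested genes whose span differed by no more than a factor of 0.8 in either direction, most isoforms lay near the middle. PRKCB had -2.54 where 299 such genes had a median of -2.63, PRKCI -0.34 where 1517 genes had -0.35, and PRKCZ -0.78 where 1177 genes had -0.84. PRKD1 had -3.34 against a median of -3.25 of 128 genes, and PRKCQ -0.75 against -0.97 of 1036 genes. PRKCD had -0.06 against 0.09 of 1947 genes, and PRKD2 0.24 against 0.04 of 1919 genes, of which 69.8% were lower. The sign of the PRKCB offset turned from 0.09 to -0.18 with a window of a factor of 0.67. These isoforms thus had about the fold change of other genes of their size.

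PRKCA, PRKCE and PRKD3 lay below the median of their span. For PRKCA, the median was -3.12 over 184 such genes and 13% of them were lower than PRKCA, and for PRKCE, 157 genes had -3.12 and 21.0% were lower. For PRKD3 the median of 1613 genes was -0.26 and 14.9% were lower. Its offset of -0.44 was -0.29 among the 423 genes that also had a CPM in DMSO within 2-fold, of which 16.3% were lower. Measured by the extent of principal transcripts, an alternative chosen after the data were seen, PRKD1 joined them, with -3.34 against -2.58 of 299 genes, of which 13% were lower. By the same measure PRKCE lay nearer the middle, with -3.80 against -3.31 of 117 genes, of which 30.8% were lower. PRKCQ lay further above, with -0.75 against -1.14 of 826 genes, of which 77.7% were lower.

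**Figure D4:**
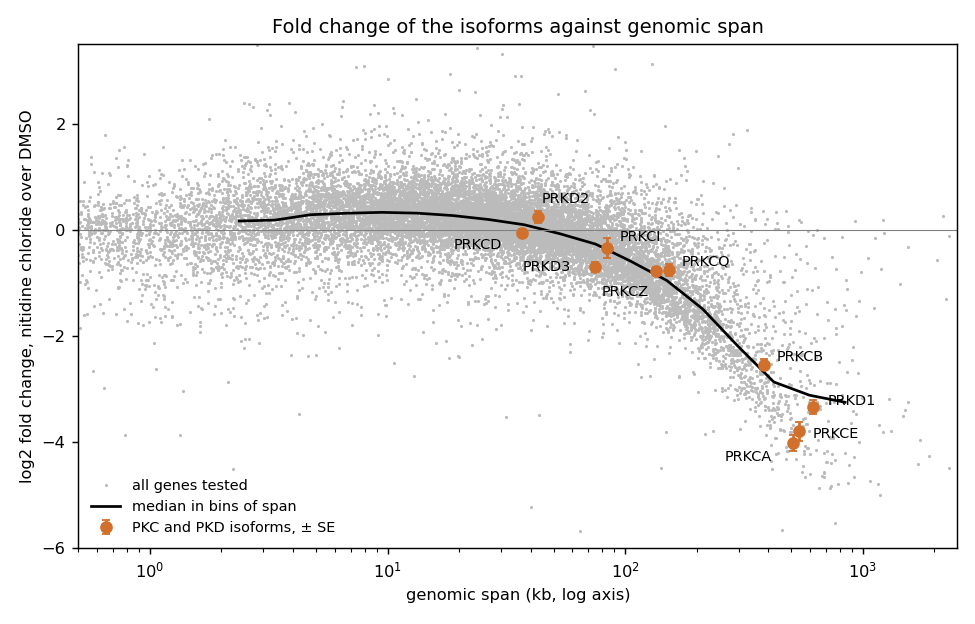
Log2 fold change of nitidine chloride over DMSO against genomic span on a log axis, with all tested genes in grey (251 lie outside the axes), their median in bins of span as a line and the isoforms as orange points ± SE. PRKCI, PRKCZ and PRKCB sit near the line, and PRKCA, PRKCE and PRKD3 below it.

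Overlapping genes touched few isoforms. The genes annotated as overlapping, in whole or in part, PRKCA, PRKCB, PRKCE, PRKD1 and PRKD2 had in sum at most 1 count per isoform over all libraries, and none overlapped PRKCD, PRKCI or PRKCQ. PRKCZ overlaps FAAP20 on the opposite strand at its 3′ end, and FAAP20 had 342, 387 and 451 counts in the controls and 498, 560 and 474 after nitidine chloride, a log2 fold change of 0.31 ± 0.07 (adjusted p = 0.00889). The antisense transcript PRKCZ-AS1 had 3 to 10 counts per library. PRKD3 overlaps NDUFAF7, also on the opposite strand, with 362 to 457 counts per library and a log2 fold change of -0.03 ± 0.10 (adjusted p = 0.808). The strand setting of the counts is not given in the sources used here, so reads at the shared ends of PRKCZ and FAAP20 and of PRKD3 and NDUFAF7 cannot be told apart.

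The genes whose profile over the 6 libraries was nearest to that of PRKCA, by Euclidean distance of log2 CPM centred on the DMSO mean, were PMFBP1, DOCK3 and SDK1, at distances of 0.26, 0.29 and 0.36. DOCK3, a guanine nucleotide exchange factor of 709.0 kb, had a log2 fold change of -4.18 ± 0.20, and SDK1, a cell adhesion gene of 967.6 kb, had -4.0 ± 0.18. PMFBP1 spans only 64.7 kb, but it had 33, 37 and 46 counts in the controls and 1, 1 and 0 after nitidine chloride, so its place rests on few counts and on the count added before taking logs. Nearest to PRKCD, the isoform with the highest FPKM in DMSO, were PFKFB3, THUMPD3 and DCPS at distances of 0.06, 0.07 and 0.08, with log2 fold changes of -0.06, -0.03 and -0.02.

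Of the 84 other genes of the pathway on 7 lists, 72 were tested, of which 29 fell, 16 rose and 27 did not pass, with a median log2 fold change of -0.03 beside 0.01 over all genes. The share called, 62.5%, stood beside 51.7% of all genes. With scaling by library size alone 28 were lower and 26 higher, so that 48.1% of those called were higher in place of 35.6%. The genes that fell spanned 80.6 to 853.9 kb and those that rose 2.55 to 47.6 kb. At a span of 100 kb or more, a limit chosen after the data were seen, 25 of 26 tested pathway genes fell and 0 rose, where 80.4% of all 2785 tested genes of that span fell and 2.12% rose. Under 100 kb, 16 of 46 tested pathway genes rose, 4 fell and 26 did not pass. Of all 13168 tested genes under 100 kb, 29.4% rose and 15.8% fell.

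Of 5 related kinases, 2 fell. PRKCH, PKC eta (363.4 kb), had 208, 243 and 272 counts in the controls and 60, 79 and 65 after nitidine chloride, a log2 fold change of -1.89 ± 0.11 (adjusted p = 7.25e-06). PKN2, a PKC-related kinase of 152.0 kb, fell with -1.72 ± 0.28 (adjusted p = 0.00161). Both of these genes were longer than 100 kb.

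Phospholipases C make diacylglycerol, and diacylglycerol kinases remove it. Of 11 tested phospholipases C, 5 fell and 2 rose. PLCB4 (412.5 kb) fell with -3.51 ± 0.26 and PLCE1 (338.8 kb) with -2.90 ± 0.25, while PLCD3 (24.4 kb) rose with 0.62 ± 0.09. Of 7 tested diacylglycerol kinases, 2 fell and 2 rose. DGKQ (28.0 kb) rose with 0.48 ± 0.10 and DGKZ (47.6 kb) with 0.31 ± 0.06, and DGKD (117.6 kb) fell with -0.27 ± 0.06 (adjusted p = 0.00952). Library size alone as the scaling put its adjusted p at 0.0523. DGKH (216.5 kb) had 644, 945 and 182 counts in the controls and 233, 63 and 60 after nitidine chloride. Its groups overlapped, and its log2 fold change of -2.42 ± 0.74 had an adjusted p of 0.0265 that ranged from 0.00577 to 0.0928 over the alternatives. With limma-voom it was 0.0626. Leaving out DMSO replicate 1 gave 0.0597, DMSO replicate 2 0.0787, nitidine chloride replicate 2 0.0928 and nitidine chloride replicate 3 0.0759.

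Of 6 tested genes for other proteins with a diacylglycerol-binding C1 domain, 3 fell and 1 rose. UNC13B, a vesicle priming factor (243.3 kb), fell from 1465, 1793 and 1925 counts to 435, 504 and 459, a log2 fold change of -1.96 ± 0.06 (adjusted p = 7.58e-07). CHN1, the Rac regulator chimaerin 1 (206.0 kb), fell with -0.91 ± 0.13.

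Genes for the kinases, chaperones and phosphatases that prime, fold or dephosphorylate PKC had 5 of 11 lower and 1 higher. PHLPP1, a phosphatase that dephosphorylates PKC (265.0 kb), fell with -2.60 ± 0.14, and MAPKAP1, the mTORC2 subunit SIN1 (269.8 kb), fell with -1.99 ± 0.14. MLST8 (5.17 kb), a subunit of both mTOR complexes, rose with 0.64 ± 0.07. PDPK1, the kinase of the PKC activation loop, did not pass (-0.21 ± 0.14, adjusted p = 0.259). The chaperone genes on the list, HSP90AA1, HSP90AB1 and CDC37, did not pass either. HSP90AA1 had 0.16 ± 0.06, HSP90AB1 0.03 ± 0.06 and CDC37 0.24 ± 0.15. PDPK1 and these chaperone genes were chosen for naming after their values were seen.

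Anchors and polarity partners had 5 of 13 higher and 5 lower. PARD3, the Par3 scaffold that binds atypical PKC (705.8 kb), had 593, 680 and 800 counts in the controls and 32, 40 and 32 after nitidine chloride. Its log2 fold change of -4.38 ± 0.10 (adjusted p = 4.14e-07) was lower than that of any isoform. PARD6B, which joins Par3 and atypical PKC in 1 complex (25.2 kb), rose with 0.63 ± 0.11, and AKAP5 (9.01 kb), a kinase anchor, rose with 0.68 ± 0.14. AKAP13 (368.8 kb), an anchor that binds PKD, fell with -2.67 ± 0.17.

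Of 19 tested substrates, 7 fell and 4 rose. GSK3B (273.1 kb) fell with -2.27 ± 0.09 and ADD3, gamma adducin (139.2 kb), with -1.50 ± 0.13. MARCKSL1 (2.55 kb), a relative of the classical PKC substrate MARCKS, rose with 0.65 ± 0.06, and CARD10 (29.2 kb) with 0.56 ± 0.08. MARCKS itself, named after its value was seen, had 4121, 5007 and 5368 counts in the controls and 5433, 5840 and 4862 after nitidine chloride and did not pass (0.085 ± 0.058, adjusted p = 0.254).

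**Figure D5:**
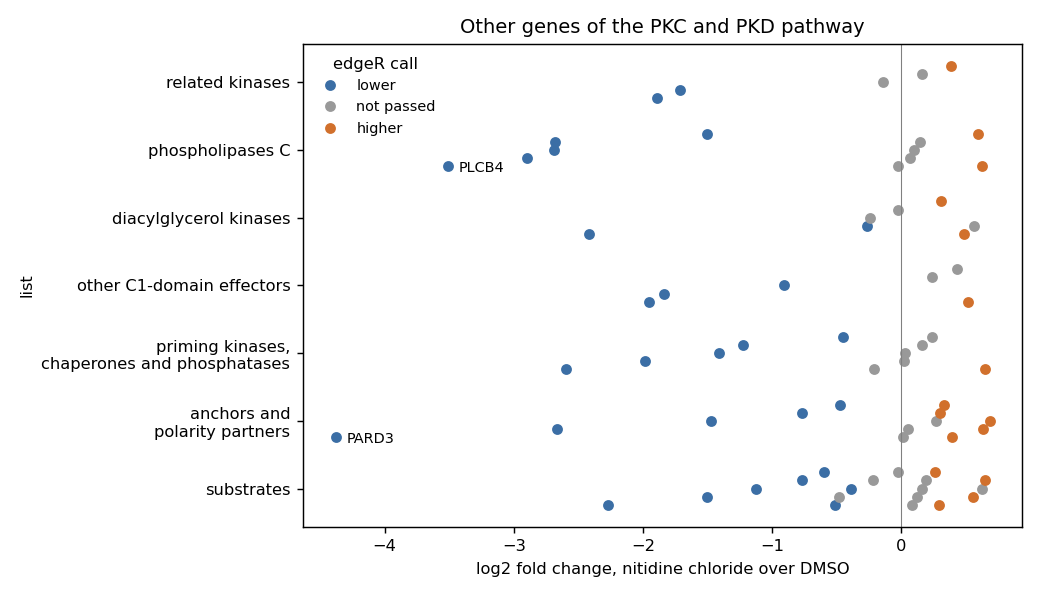
Log2 fold change of nitidine chloride over DMSO for the 72 tested pathway genes, 1 row per list, coloured by edgeR's call at an adjusted p under 0.05. Blue points reach down to PARD3 at -4.38, and the highest orange point is AKAP5 at 0.68.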

How the data were processed

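Expression of mRNA was measured in 3 DMSO and 3 nitidine chloride libraries, grouped by title. The members and lists were chosen with earlier results of these data known. Per the file headers, the deposited table held raw read counts and FPKM per gene, made by the authors. The submitters' processing notes name HISAT2 2.0.4 and StringTie 1.3.0 without roles. The counter, strand setting, build and annotation were not given in the sources used here. Positions were identical to GENCODE release 29 (GRCh38) for 47484 of 50111 shared identifiers, not for PRKCB, whose start differs. Principal transcripts are those tagged so in GENCODE, and promoters come from RefSeq, GRCh38.p14, matched for 10 of 10 isoforms.

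The 15953 genes averaging 10 counts or more were tested, with TMM scaling and edgeR 4.0.16's quasi-likelihood test (R 4.3.3, Benjamini-Hochberg, threshold 0.05). The test was also run on simulated counts in which few genes changed, in random directions. Far more genes changed here, so that run does not check the scaling or error rate in these data. CPM is after TMM scaling, except per kilobase of the principal transcript, where counts are scaled by library size alone. SE is the log2 fold change over the square root of F. Pathway genes named are in each list the 2 highest and 2 lowest fold changes past the threshold where the group with more FPKM averaged 1 or above, all isoforms, overlapping genes with counts, and the 3 genes nearest to PRKCA and to PRKCD. Some related kinases are not reported here. Alternatives tried were the replicate number as a block, leaving out libraries singly, no filter, a mean of at least 50 counts, DESeq2 1.42.0, library size alone, limma-voom (limma 3.58.1), a threshold of 0.01, and other definitions of similar span. Levels per kilobase of the principal transcript, and its extent as the span, were added after the data were seen.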

Additional observations from a re-analysis of the deposited data

How the results depend on the processing

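The count of changed genes was 8250, and from 7057 to 7828 when leaving out libraries singly. At a threshold of 0.01, 2616 genes were higher in place of 3936. Scaling by library size alone gave 26 higher pathway genes in place of 16. Pathway genes numbered 12 to 17 higher and 28 to 29 lower when leaving out libraries singly. With a replicate block, 7555 genes changed, 15 pathway genes were higher, 29 were lower and 8 of 10 isoforms were called lower, PRKCI being added. Over all genes tested, same-numbered libraries did not deviate together (r = 0.00138, -0.055 and 0.0403). Such values cannot exclude a pairing by number, and the labels do not say whether there was one. Of 120 fold changes of isoforms under alternatives, 118 lay within 1 SD between replicates of the reported value, and none of the 7 called isoforms changed sign. The 2 others were PRKCD and PRKCZ with library size alone, at 0.05 and -0.67. All alternatives reuse the same 6 libraries, and leaving out 1 library can hardly move a value by 1 SD. The tally therefore says little about stability. Depth limits PRKCE most, with 15 to 29 counts after nitidine chloride.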
